A study of Mus musculus with 12 samples.

Results

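The genes described here are integrin alpha V (Itgav) and the 8 integrin beta chains of the mouse (Itgb1 to Itgb8), picked out by gene symbol, 9 of the 31053 genes listed for the series. They were followed as unique molecular identifiers (UMIs), the counted RNA molecules, in single nuclei of mouse lung, in 12 libraries that each come from 1 mouse and form 4 groups of 3. All mice were wild-type C57BL/6J, without a transgene, and 7 weeks old when PBS or bleomycin, which injures the lung and leads to fibrosis, was placed in the trachea. From day 5, NVP-BHG712, an inhibitor of the receptor tyrosine kinase EphB4, or its vehicle was given by mouth for 5 days, and lungs were taken on day 14. PBS_vehicle and PBS_NVP mice received PBS, Bleo_vehicle and Bleo_NVP mice bleomycin, and the 2 groups with NVP in their name received the inhibitor. The study concerned EphB4 as a drug target in fibrosis of the lung. Here the question is where each integrin chain was expressed and whether its level differed after bleomycin and with the inhibitor.

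Integrins are receptors that join the matrix outside a cell to its actin skeleton, and each is a pair of 1 alpha and 1 beta chain. Alpha V pairs with beta 1, 3, 5, 6 or 8 and binds matrix proteins that carry an arginine-glycine-aspartate motif. Alpha V beta 6, an epithelial integrin, and alpha V beta 8 bind the propeptide that keeps TGF-beta latent and release the active growth factor, a step known to matter in lung fibrosis. Beta 2 and beta 7 are leukocyte chains that pair with other alpha chains, and beta 4 pairs with alpha 6 in hemidesmosomes, which anchor epithelial cells to the basement membrane.

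After filters 44611 nuclei were kept, from 1168 to 11867 per library with medians of 1077 to 5268 UMIs. Nuclei were grouped into 18 classes by marker genes. The classes were rebuilt from markers and are to be read as type I alveolar-like, fibroblast-like and so on, and the 9 genes took no part in the clustering. The 3 Bleo_vehicle libraries stood apart, with median mitochondrial shares of 2.56, 1.32 and 0.668% against at most 0.0496% in the other 9. They carry batch numbers 6, 6 and 7 in the labels, the Bleo_NVP libraries run number 4 and the PBS libraries run numbers 1 to 3, so for every comparison that involves bleomycin the batch and the treatment cannot be told apart. Any 2 libraries shared at most 34 cell barcodes. Levels are given as CPM (counts per 1000000, the UMIs of a gene relative to all UMIs of the class in a library, scaled by TMM), and levels of different genes are not compared, because 3′ counts from nuclei do not give them per gene length. The order of classes is a description, with no test.

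Itgav, on chromosome 2 at 83724397 to 83806916 (plus strand, GRCm38), was found in all 18 classes. Its level was highest in interstitial macrophages or monocytes, at 294 ± 95.5 CPM (SD, n = 12 libraries), followed by lymphatic endothelium at 228 ± 90.2 CPM (n = 7) and dendritic cells at 186 ± 65.3 CPM (n = 7). It was lowest in B lymphocytes, at 68.6 ± 46.7 CPM (n = 6). Each class overlapped the next in this order, so that Itgav differed between classes by degree only. Among the alveolar classes it stood at 164.5 ± 60.9 CPM in type II nuclei and at 122 ± 39.9 CPM in type I nuclei (n = 12 each).

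Itgb6, on chromosome 2 at 60598292 to 60722643 (minus strand), was a type I alveolar gene. Type I nuclei, the thin cells that line the alveolus, held 514 ± 182 CPM (n = 12) and 87.5% of the 24798 Itgb6 UMIs of the series, between 72.4 and 95.7% in each library. An Itgb6 UMI was found in 69.3% of type I nuclei, at a median depth of 5150 UMIs, against 2.25% of alveolar macrophages, which should lack the chain, at 2391 UMIs. Type II nuclei, the surfactant-producing cells that can become type I cells, came next at 78.9 ± 89.6 CPM, and club cells of the airway at 60.6 ± 23.4 CPM. The highest type II library, at 329 CPM, overlapped the lowest type I library, at 312 CPM. Gprc5a and Gramd2 were among the genes whose class means followed Itgb6 most closely over the 18 classes, with Pearson r of 0.95 and 0.93 on the log2(CPM + 1) scale, both highest in type I nuclei.

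Itgb8, on chromosome 12 at 119158022 to 119238802 (minus strand), was a fibroblast gene. Fibroblasts held 41.1 ± 10.6 CPM (n = 12) and 84.0% of the 1865 Itgb8 UMIs. Itgb8 was seen in 8.16% of fibroblast nuclei at a median of 3205 UMIs, against 0.115% of alveolar macrophages at 2391 UMIs. Dendritic cells followed at 19.5 ± 26.4 CPM (n = 7), from 28 UMIs, and overlapped the fibroblasts. These dendritic UMIs came from Bleo_vehicle only, with 1, 3 and 24 UMIs in replicates 1, 2 and 3, and the libraries of the other groups held 0. Type I nuclei, the main site of Itgb6, gave 10 Itgb8 UMIs in 6425 nuclei, so the 2 beta chains that release TGF-beta with alpha V lay in different classes. Sod3 and Slco5a1 followed Itgb8 most closely over the classes, each with r = 0.88.

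**Figure D1:**
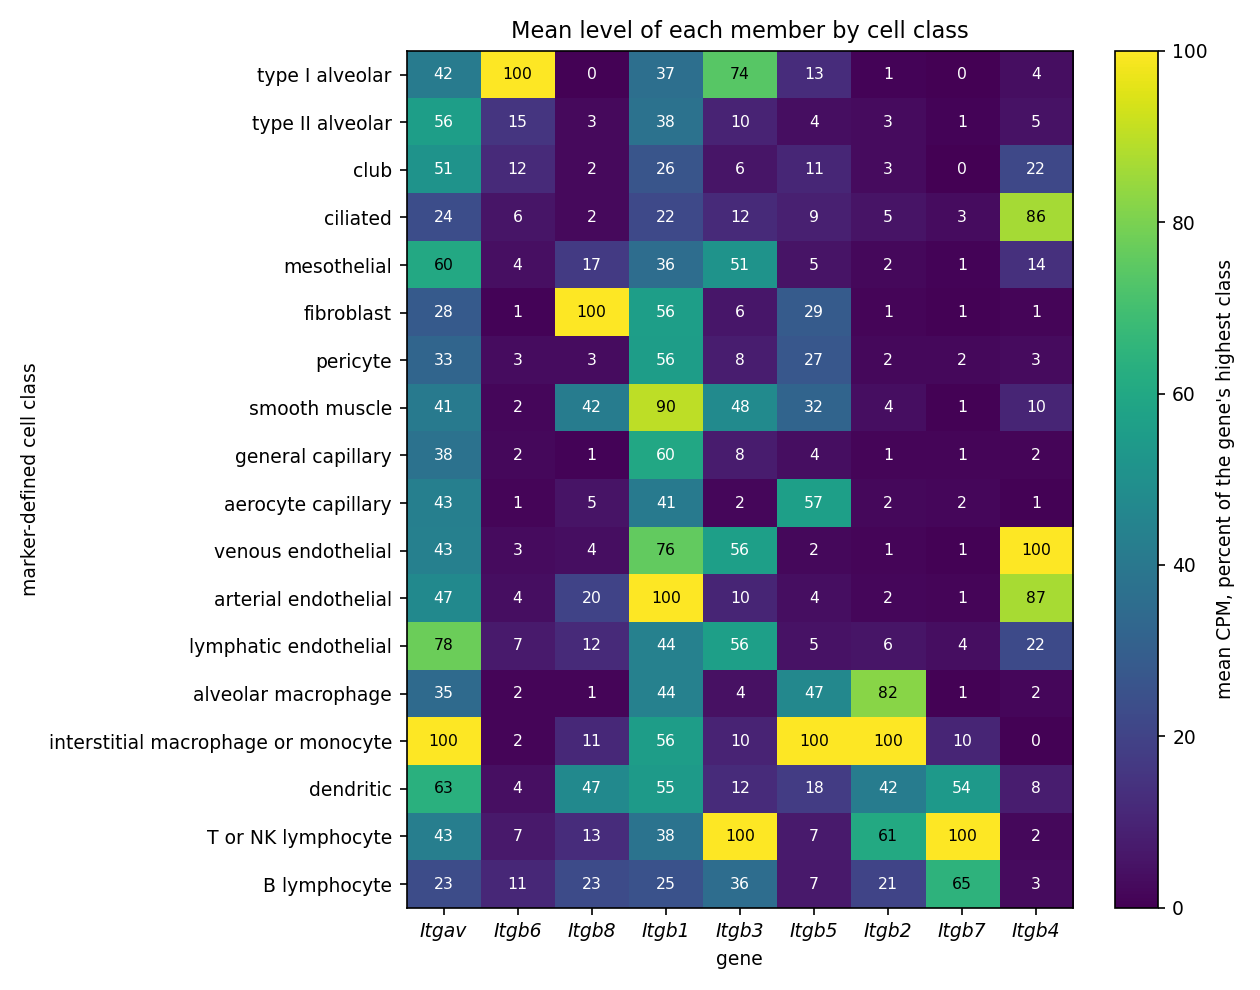
Mean CPM of each of the 9 genes in the 18 marker-defined classes, as a percent of the gene's own highest class, over libraries with at least 20 nuclei of the class. Itgb6 stands at 100 in type I alveolar nuclei and at most at 15 elsewhere, Itgb8 stands at 100 in fibroblasts, and Itgav and Itgb1 are spread over all classes.

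Within the fibroblasts, Itgb8 was uneven (CPM here without TMM scaling). Fibroblast cluster 18, led by Pi16, Scara5, Ebf2 and Dcn, held 139.5 ± 70.8 CPM (n = 10 libraries with at least 20 nuclei). Cluster 7, led by Agtr1b, Ppp1r3a and Itgbl1, held 108 ± 35.8 CPM (n = 12), with 41.2 CPM in its lowest library. The 2 larger clusters were far lower, cluster 3 (Scube2, Adra1a, Itga8) at 14.9 ± 5.69 CPM and cluster 6 (Tnc, Adamtsl2, Wnt2) at 14.3 ± 6.08 CPM (n = 12 each). No library of clusters 3 or 6 reached 25 CPM, so neither overlapped cluster 18 or 7.

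**Figure D2:**
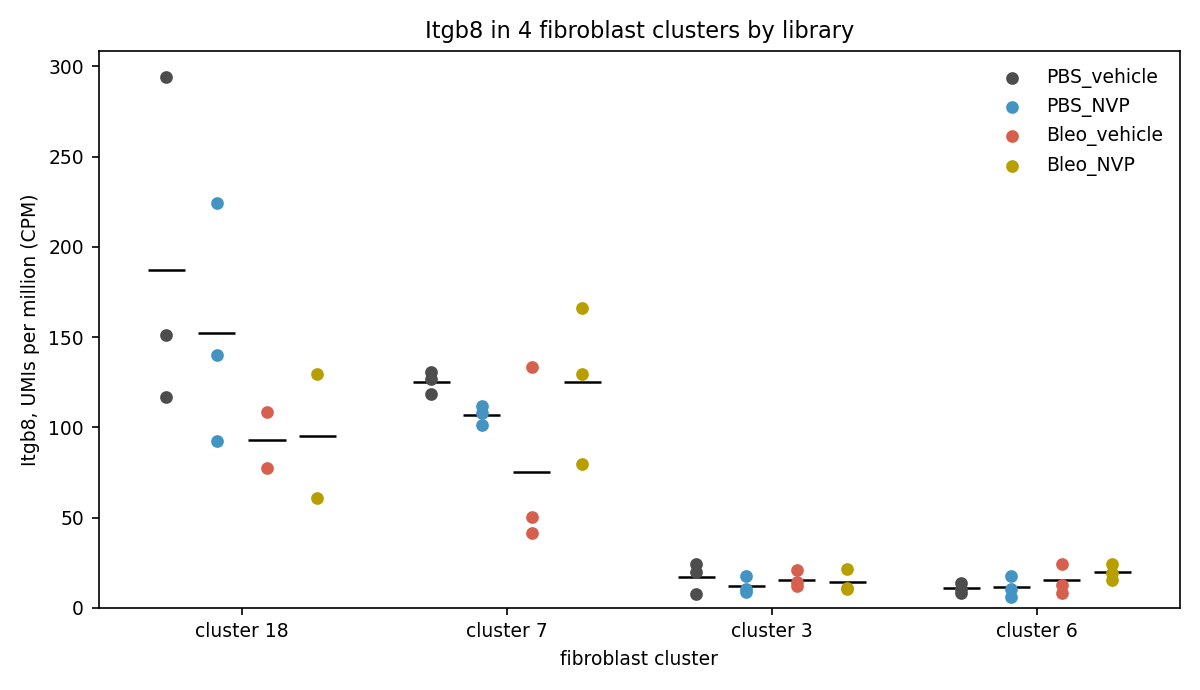
Itgb8 in CPM in 4 fibroblast clusters, with 1 point per library that has at least 20 nuclei of the cluster and a bar at the mean of each group. Clusters 18 and 7 lie above clusters 3 and 6 in every library shown, and Bleo_vehicle has only 2 libraries in cluster 18.

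Of the other partners of alpha V, Itgb1 (chromosome 8, 128685654 to 128733200, plus strand) encodes the most widely paired beta chain and was found in every class. It was highest in arterial endothelium, at 670 ± 302 CPM (n = 10), smooth muscle, at 604.5 ± 52.0 CPM (n = 3), and venous endothelium, at 508 ± 156.5 CPM (n = 12), and lowest in ciliated cells, at 149 ± 39.1 CPM. Neighbours in this order overlapped throughout. Itgb3 (chromosome 11, 104608000 to 104670476, plus strand), known from platelets and endothelium, had 71.0% of its 3735 UMIs in type I nuclei, at 71.4 ± 22.8 CPM (n = 12). T or NK lymphocytes reached 96.3 ± 42.4 CPM (n = 7) from 90 UMIs, which overlapped the type I nuclei. Itgb5 (chromosome 16, 33829665 to 33949338, plus strand), which forms the vitronectin receptor alpha V beta 5, was highest in interstitial macrophages or monocytes at 401.5 ± 77.7 CPM (n = 12). This was the single leading class of the 9 genes that did not overlap the next, aerocyte capillary endothelium at 227 ± 61.9 CPM, although under other clustering and filter settings its mean was 286 to 334 CPM. Alveolar macrophages followed at 188 ± 43.2 CPM.

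Itgb2 (chromosome 10, 77530252 to 77565708, plus strand), the beta chain of the integrins by which leukocytes adhere to endothelium, held 129 ± 36.7 CPM in interstitial macrophages or monocytes and 106 ± 26.6 CPM in alveolar macrophages (n = 12 each), and these overlapping classes gave 20.9 and 58.2% of its 2282 UMIs. The first value was 79.1 CPM with no batch correction. Outside the 5 leukocyte classes it stood at no more than 7.33 CPM. Ptprc and Vav1, a leukocyte phosphatase and an immune cell signalling protein, followed it with r = 0.97 and 0.96. Itgb7 (chromosome 15, 102215995 to 102231944, minus strand), the beta chain of lymphocyte homing, held 203 ± 82.4 CPM in T or NK lymphocytes (n = 7), 131 ± 128.5 CPM in B lymphocytes (n = 6) and 110.1 ± 89.4 CPM in dendritic cells (n = 7), all overlapping. It had 660 UMIs in the series and passed the filter on low counts in none of the classes fitted. The lymphocyte and dendritic classes were not fitted for any gene, since some groups had too few libraries with at least 20 nuclei of them.

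Itgb4 (chromosome 11, 115974709 to 116008412, plus strand) was found in the larger vessels and the airway, with 76.1 ± 35.4 CPM in venous endothelium (n = 12), 66.3 ± 59.4 CPM in arterial endothelium (n = 10) and 65.8 ± 39.1 CPM in ciliated cells (n = 12). These 3 classes overlapped. Capillary endothelium was far lower, at 1.17 ± 1.71 CPM in general capillaries and 0.570 ± 1.33 CPM in aerocytes. Type I nuclei held 2.71 ± 6.47 CPM, with 22.9, 4.03 and 2.44 CPM in Bleo_vehicle and at most 1.33 in the other 9 libraries. Itgav and Itgb4 overlap genes on the other strand, and the sources used here do not state how reads from overlapping genes were assigned.

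The groups were compared in 11 classes with sums of UMIs per library and the quasi-likelihood test of edgeR, adjusted by the Benjamini-Hochberg method over all genes of a class. A gene is called at an adjusted p under 0.05. The 8 chains other than Itgb7 passed the filter on low counts in 1 to 11 classes each, which gave 40 pairs of a gene and a class. Between Bleo_vehicle and PBS_vehicle 3 of the 40 were called, all higher after bleomycin (Itgb6 in type II and in ciliated nuclei and Itgb5 in alveolar macrophages), where 3.41% of all 64073 gene and class pairs were called in either direction. Between Bleo_NVP and Bleo_vehicle 2 were called, both lower with the inhibitor (Itgb6 in type II and in ciliated nuclei), where 4.28% of all pairs were called. These 2 comparisons share the Bleo_vehicle libraries and are not independent. In ciliated nuclei Itgb6 passed the filter only through those libraries, so its calls there are a description and add no support to these counts. The unadjusted p was under 0.05 for 7 and 13 of the 40 pairs. The median log2 change of the 40 pairs was 0.09 in the first comparison, against -0.01 over all genes, and -0.28 in the second, against 0.00.

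**Figure D3:**
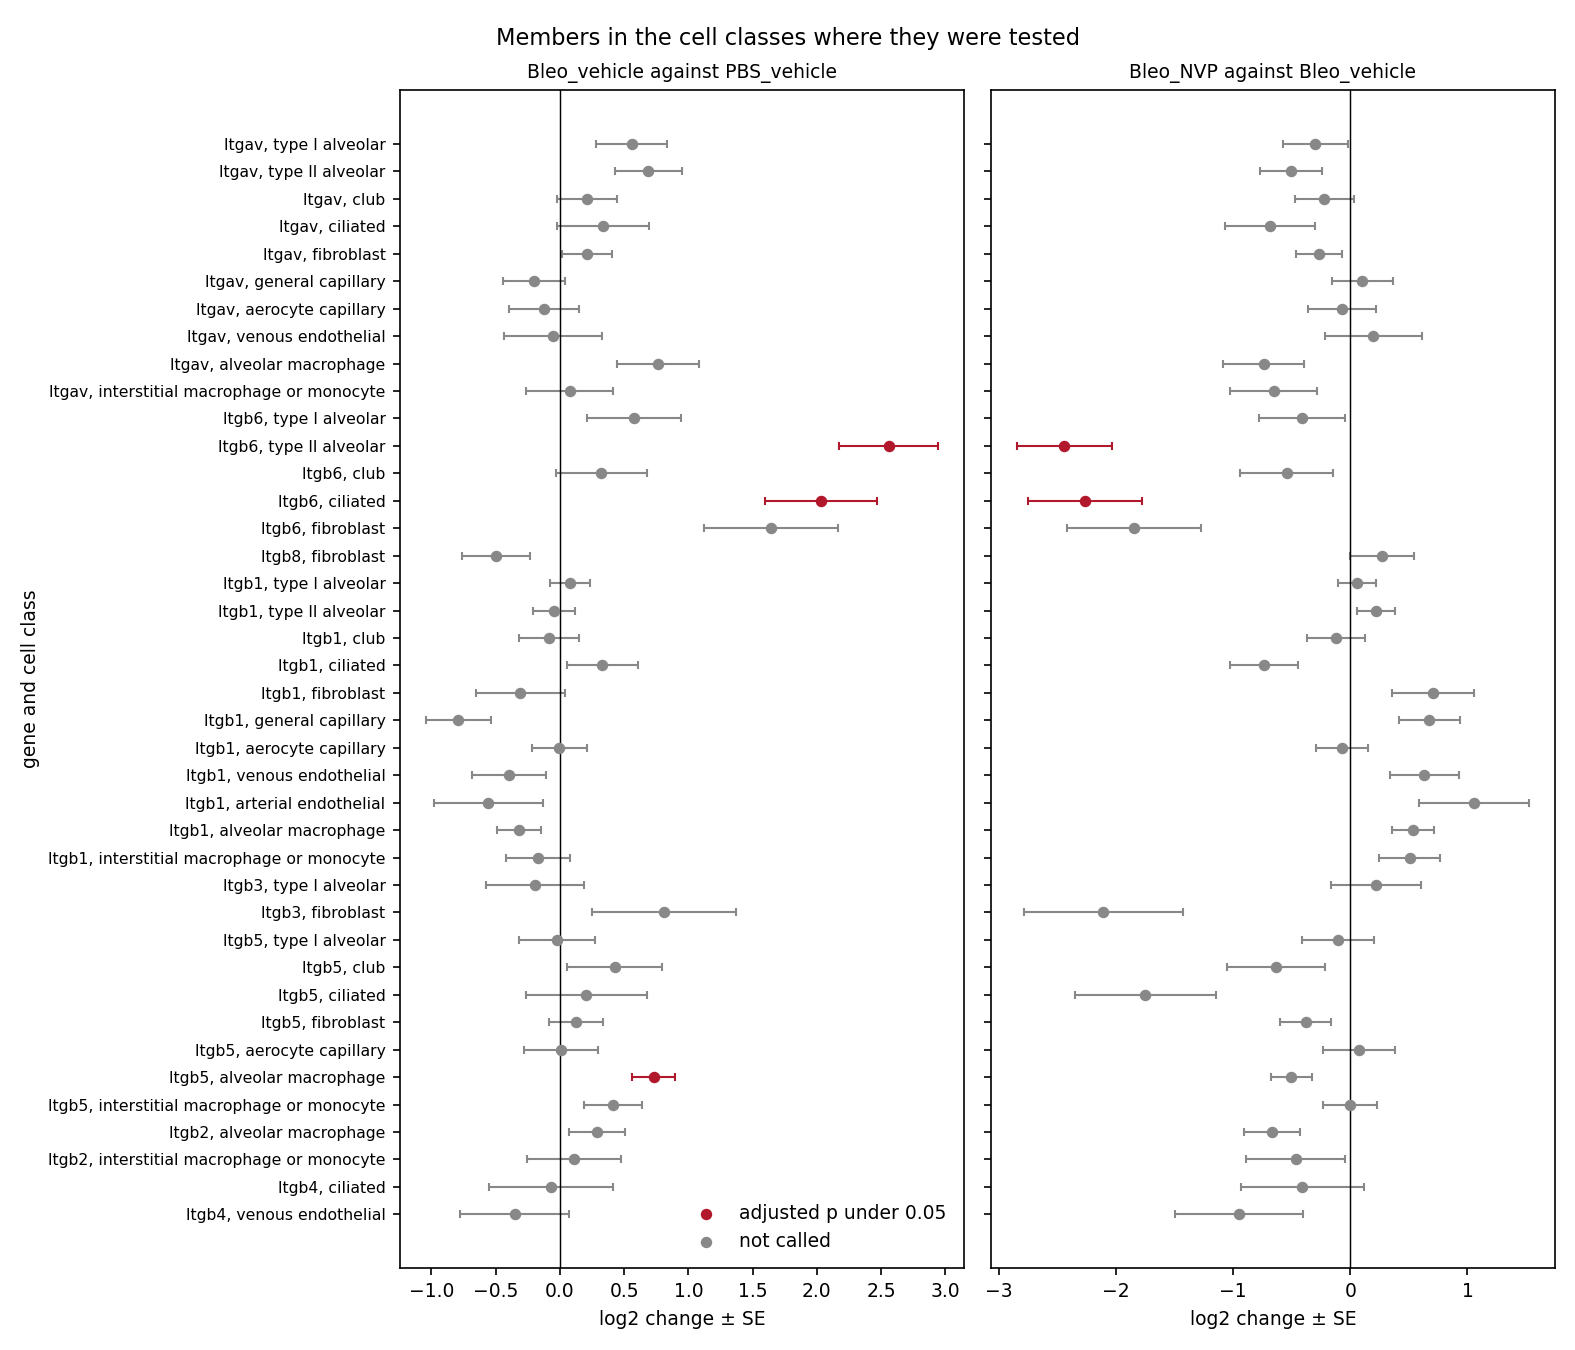
Log2 change with its standard error (horizontal bars) for the 40 pairs of a gene and a class that were tested, in the 2 comparisons with Bleo_vehicle, with called pairs in red. Itgb6 in type II and ciliated nuclei is called in both panels, in opposite directions, and Itgb5 in alveolar macrophages in the left panel.

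Itgb6 in type II nuclei was the clearest difference of the 9 genes. PBS_vehicle libraries held 34.5, 20.6 and 43.7 CPM, PBS_NVP 25.2, 42.7 and 55.9, Bleo_vehicle 329, 152 and 136.5, and Bleo_NVP 27.1, 40.8 and 38.6. All 3 Bleo_vehicle libraries lay above every other library, and Bleo_NVP lay within the range of the PBS groups. Between Bleo_vehicle and PBS_vehicle 22.0% of all genes tested in this class did not overlap, in either direction. Within Bleo_vehicle Itgb6 was highest in replicate 1 and lowest in replicate 3, the order of the mitochondrial shares, and the part of RNA quality was not tested. The log2 change was 2.56 ± 0.38 (SE) for Bleo_vehicle against PBS_vehicle, a 5.89-fold rise (adjusted p = 0.00233), and -2.44 ± 0.40 for Bleo_NVP against Bleo_vehicle (adjusted p = 0.00516). In type II nuclei 2.84% of the 6206 genes tested were called higher in the first comparison and 2.82% lower in the second. Both calls held in all 12 fits that leave out 1 library, with log2 changes of 2.11 to 2.75 and -2.64 to -1.99, and in all 7 other settings.

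The Itgb6 molecules of type II nuclei were carried by a minority of them. In Bleo_vehicle 22.5, 13.8 and 18.9% of type II nuclei had an Itgb6 UMI, against 11.2, 3.65 and 5.41% in PBS_vehicle and 3.87, 5.49 and 4.71% in Bleo_NVP, at median depths of 1218, 1303 and 2897 UMIs in Bleo_vehicle, 5112, 1644 and 1355 in PBS_vehicle and 1341, 1787.5 and 1402 in Bleo_NVP. These shares were not brought to 1 depth, and PBS_vehicle replicate 1, with the deepest nuclei, stood above the other PBS_vehicle libraries. The highest number in 1 nucleus was 15, 28 and 35 UMIs in Bleo_vehicle replicates 1, 2 and 3, and elsewhere no more than 8. In Bleo_vehicle 45 of 2221 type II nuclei held at least 5 Itgb6 UMIs and together 44.7% of the 964 Itgb6 UMIs of the class, and 4 of 744 did so in PBS_vehicle. The 45 nuclei of Bleo_vehicle had a median depth of 6497 UMIs, against 2361 for all type II nuclei of that group.

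Type I markers were also higher in the type II class of Bleo_vehicle. The 10 type I alveolar markers (Ager, Hopx, Rtkn2, Aqp5 and 6 others) gave 451 to 731 CPM (without TMM scaling) in the type II nuclei of PBS_vehicle and 1247 to 1688 in those of Bleo_vehicle. In the 45 type II nuclei of Bleo_vehicle with at least 5 Itgb6 UMIs these markers gave 0.281% of UMIs. In type II nuclei of that group without an Itgb6 UMI they gave 0.109%. Set against these markers, type II nuclei of Bleo_vehicle held 20.3, 7.80 and 10.2 Itgb6 UMIs per 100 marker UMIs, where type I nuclei of the same libraries held 9.52, 4.00 and 5.82. In PBS_vehicle the values were 4.74, 3.69 and 9.47 in type II nuclei and 1.95, 2.10 and 4.43 in type I nuclei, so that type II nuclei lay above type I nuclei of the same library in both groups. The markers themselves were lower in type I nuclei of Bleo_vehicle, at 7886 to 13122 CPM against 14687 to 18775 in PBS_vehicle. Without the nuclei in which type I markers exceed 0.2% of UMIs, a setting chosen after seeing the data that removed 31, 144 and 258 of the type II nuclei of Bleo_vehicle, the log2 changes were 2.25 (adjusted p = 0.0108) and -2.45 (adjusted p = 0.0125). Itgb6 then stood at 249, 99.4 and 92.2 CPM (without TMM scaling) in Bleo_vehicle and at 18.5 to 44.3 CPM in the other 9 libraries. Markers of the transitional state between type II and type I cells (Krt8, Cldn4, Sfn and 4 others) summed to 403, 230.1 and 314 CPM in type II nuclei of Bleo_vehicle, against 117 to 152 in PBS_vehicle, and PBS_NVP replicate 3 reached 351. The part of type I RNA, of doublets and of transitional cells in the Itgb6 difference was not tested.

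**Figure D4:**
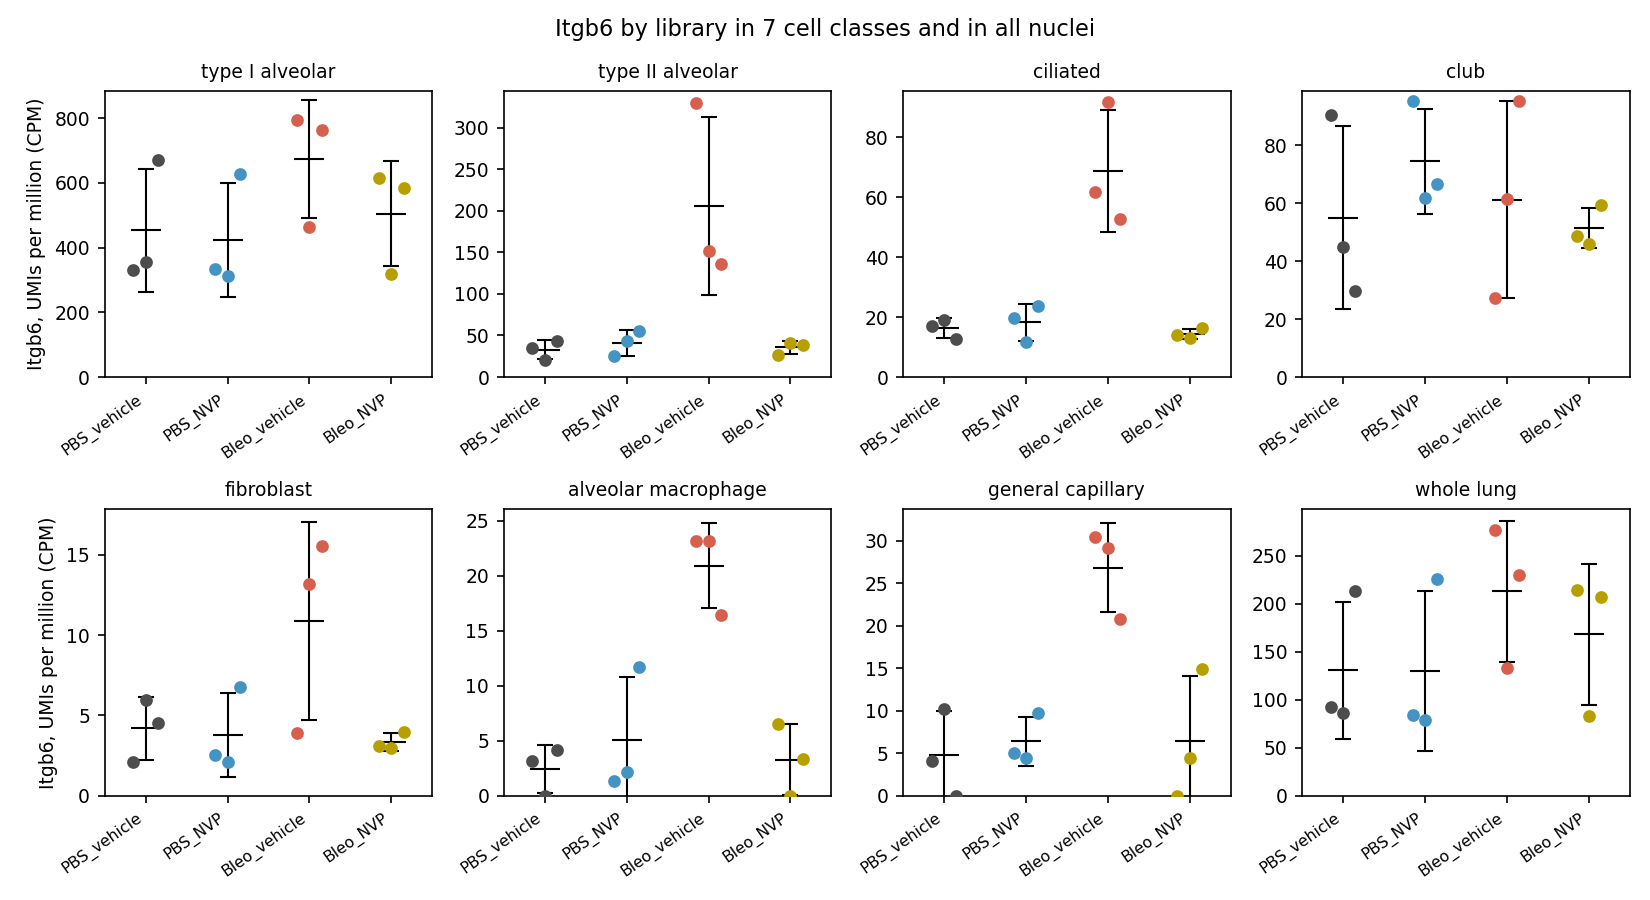
Itgb6 in CPM by library in 7 classes and in the whole lung, with 1 point per library and the mean ± SD of each group (n = 3), each panel on its own axis from 0. Bleo_vehicle lies above the other groups in type II and ciliated nuclei, and also, at levels under 35 CPM, in alveolar macrophages and general capillaries.

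In ciliated nuclei of the airway Itgb6 stood at 61.6, 91.7 and 52.7 CPM in Bleo_vehicle, against 17.0, 19.1 and 12.8 in PBS_vehicle, 19.5, 11.6 and 23.8 in PBS_NVP and 14, 13.1 and 16.3 in Bleo_NVP. The Bleo_vehicle libraries lay above the other 9, where 19.1% of all genes tested in the class did not overlap between Bleo_vehicle and PBS_vehicle. The log2 change was 2.03 ± 0.44 after bleomycin (adjusted p = 0.0172, with 2.13% of 5949 genes called higher) and -2.27 ± 0.49 with the inhibitor (adjusted p = 0.0116, with 4.94% called lower). Itgb6 passed the filter on low counts in this class only through the Bleo_vehicle libraries, the group in which it was high. Both calls are therefore a description and no independent support for a difference. The ciliated values rest on few molecules, 3, 61 and 97 UMIs in the Bleo_vehicle libraries, and 5 of the 782 ciliated nuclei held 70 of the 161. These 5 nuclei had a median depth of 12947 UMIs, against 2628.5 for all ciliated nuclei of Bleo_vehicle. Type I markers gave 0.756% of their UMIs, against 0.066% in ciliated nuclei of that group without an Itgb6 UMI. The first call was lost without Bleo_vehicle replicate 2 (1.66, adjusted p = 0.423), and without PBS_vehicle replicate 1, 2 or 3 (2.03, 2.12 and 1.92, adjusted p = 0.0793, 0.0676 and 0.0865). The second was lost without Bleo_vehicle replicate 2 (-1.90, adjusted p = 0.233) and without Bleo_NVP replicate 1, 2 or 3 (-2.24, -2.17 and -2.31, adjusted p = 0.0502, 0.0733 and 0.0563). Without the nuclei in which type I markers exceed 0.2% of UMIs, Itgb6 in ciliated nuclei fell under the filter on low counts and stood at 17.4, 27.5 and 23.8 CPM in Bleo_vehicle and at 6.97, 18.4 and 12.3 in PBS_vehicle (without TMM scaling), which overlap.

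Itgb6 UMIs were also present in classes that should lack the chain. In alveolar macrophages they gave 23.1, 23.2 and 16.5 CPM in Bleo_vehicle and 3.17, 0 and 4.18 in PBS_vehicle, and in general capillary endothelium 30.5, 29.2 and 20.8 against 4.12, 10.2 and 0. Bleo_NVP held at most 6.51 CPM in alveolar macrophages and at most 14.9 in general capillaries. Itgb6 passed the filter in neither class. In fibroblasts it was tested and missed the threshold, with 3.89, 13.2 and 15.6 CPM in Bleo_vehicle, 2.08, 5.97 and 4.51 in PBS_vehicle and a log2 change of 1.64 ± 0.52 (adjusted p = 0.085). Per 100 type I marker UMIs, Bleo_vehicle held 3.69 Itgb6 UMIs in alveolar macrophages, 1.99 in general capillaries, 3.80 in fibroblasts and 5.49 in ciliated nuclei, against 5.72 in type I and 10.1 in type II nuclei. Club cells held 7.58, and 5.62 to 7.74 in the other groups. Type II and club nuclei thus lay above the pooled type I value of Bleo_vehicle, and the other 4 classes below it. By library, club nuclei of Bleo_vehicle ran from 2.30 to 8.63, which overlaps type I nuclei at 4.00 to 9.52. How much free RNA adds to these values was not tested.

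**Figure D5:**
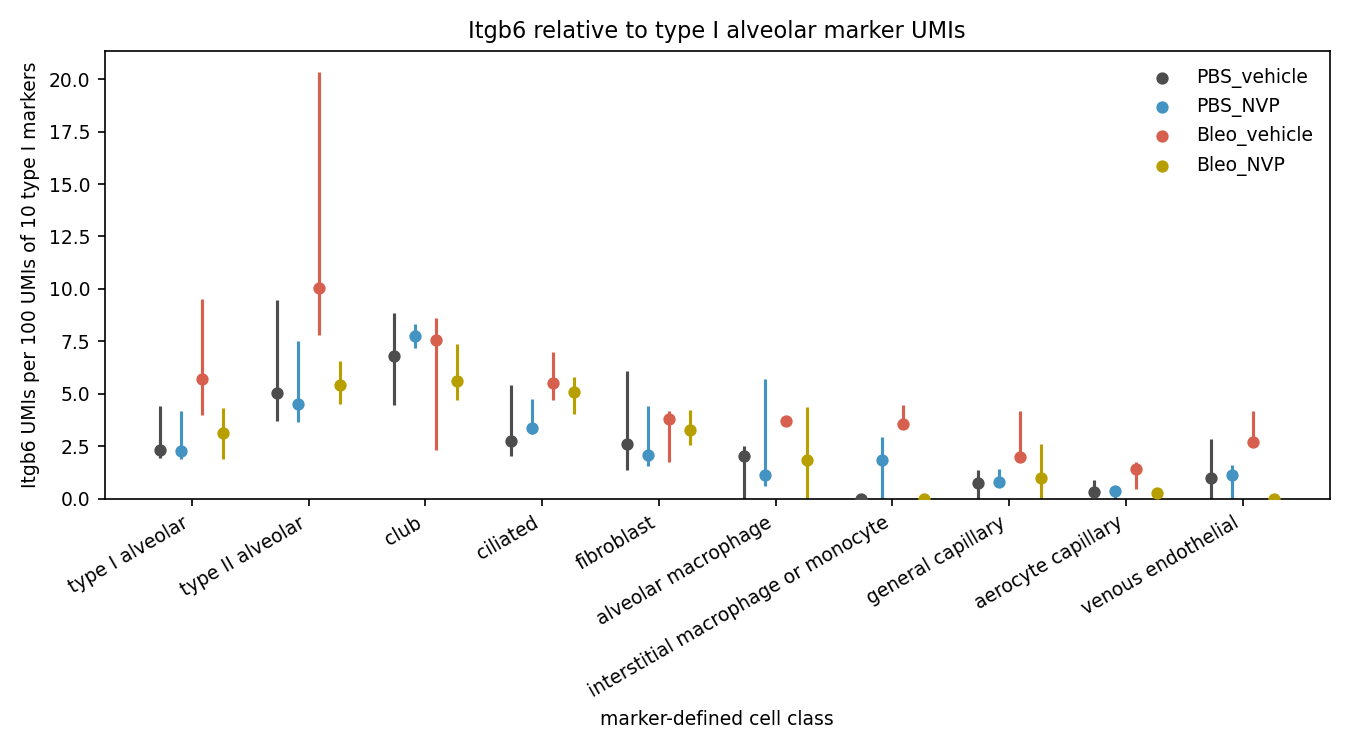
Itgb6 UMIs per 100 UMIs of 10 type I alveolar markers in 10 classes, with a point for the pooled libraries of a group and a line from its lowest to its highest library. Type II nuclei of Bleo_vehicle have the highest pooled value, at 10.1.

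In type I nuclei, where Itgb6 was most abundant, no difference was called. PBS_vehicle held 331, 356 and 672 CPM, PBS_NVP 333, 312 and 626, Bleo_vehicle 794, 464 and 762, and Bleo_NVP 614, 318 and 584. All groups overlapped, since each of the other 3 groups held libraries under 400 CPM as well as libraries over 500 CPM. The log2 change was 0.58 ± 0.37 after bleomycin (adjusted p = 0.462) and -0.41 ± 0.37 with the inhibitor (adjusted p = 0.575). Type I cluster 11, in which Itgb6 was among the 10 genes with the largest fold although it had no part in the clustering, made up 2.96, 2.91 and 4.25% of the nuclei in Bleo_vehicle, 0.465 to 1.17% in PBS_vehicle and 1.39 to 1.71% in Bleo_NVP. Of its 946 nuclei 53.3% came from Bleo_vehicle replicate 3. In the scores that name clusters, the transitional marker list stood at 1.49 in cluster 11, close behind the type I list at 1.81. No type I marker was among its 10 leading genes. Over all type I nuclei the transitional markers summed to 454, 163 and 161 CPM in Bleo_vehicle, against 97.6 to 139 in PBS_vehicle (without TMM scaling). The part of transitional cells in cluster 11 was not tested. Itgb6 averaged 478 ± 192 CPM in cluster 11 (n = 8 libraries, without TMM scaling) and 495 ± 191 in the main type I cluster (n = 12), which overlap. Club cells, with 90.4, 45.0 and 29.7 CPM in PBS_vehicle and 27.2, 61.4 and 95.2 in Bleo_vehicle, were not called either (log2 change 0.32 ± 0.35, adjusted p = 0.803).

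Itgb8 was tested in fibroblasts only. It stood at 39.2, 63.2 and 46.4 CPM in PBS_vehicle, 36.4, 43.2 and 38.8 in PBS_NVP, 24.6, 25.7 and 49.1 in Bleo_vehicle and 44.1, 48.0 and 33.9 in Bleo_NVP. Bleo_vehicle replicates 1 and 2 were the lowest libraries of the series, and replicate 3 lay within the range of PBS_vehicle. The log2 change was -0.50 ± 0.26 after bleomycin (adjusted p = 0.342) and 0.27 ± 0.27 with the inhibitor (adjusted p = 0.601). Cluster 7 showed the same order, with 41.2 and 50.5 CPM in Bleo_vehicle replicates 1 and 2, 133 in replicate 3 and 119 to 131 in PBS_vehicle. Cluster 7 made up 18.8 to 25.4% of the fibroblasts in PBS_vehicle and 17.2 to 25.1% in Bleo_vehicle. Without Bleo_vehicle replicate 3 the difference in fibroblasts was called (log2 change -0.97, adjusted p = 0.0263), so that this library decides it.

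Itgav itself was called in none of its 10 classes in either comparison. After bleomycin its log2 change ran from -0.20 to 0.77 and was positive in 7 classes, and with the inhibitor it ran from -0.74 to 0.19 and was positive in 2. Type II nuclei held 128, 134 and 142 CPM in PBS_vehicle, 349.9, 149 and 179.9 in Bleo_vehicle and 149, 149 and 157 in Bleo_NVP. The Bleo_vehicle libraries lay above those of PBS_vehicle without overlap, with replicate 1 the highest of all 12, a separation that 22.0% of all genes tested in this class showed in either direction, and the change of 0.69 ± 0.26 missed the threshold (adjusted p = 0.147). In the whole lung, where all nuclei of a library are summed, Itgav stood at 91.3 to 108 CPM in PBS_vehicle, at 192, 116 and 127 in Bleo_vehicle and at 99.6 to 115 in Bleo_NVP, again with the Bleo_vehicle libraries above those of PBS_vehicle (20.3% of all genes did not overlap) and no call (0.50 ± 0.17, adjusted p = 0.147). In such sums fewer cells of a type and less RNA per cell cannot be told apart.

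Among the other alpha V partners, Itgb5 was called in alveolar macrophages. They held 168, 159.98 and 121 CPM in PBS_vehicle, 172, 182 and 161 in PBS_NVP, 229, 253 and 276 in Bleo_vehicle and 176, 179 and 181 in Bleo_NVP. All Bleo_vehicle libraries lay above the other 9, where 22.4% of all genes tested in the class did not overlap between Bleo_vehicle and PBS_vehicle. The log2 change was 0.73 ± 0.17 after bleomycin (adjusted p = 0.0147, with 5.33% of 6210 genes called higher). With the inhibitor it was -0.50 ± 0.18 and missed the threshold (adjusted p = 0.112). The rise missed the threshold without Bleo_vehicle replicate 2 (0.71, adjusted p = 0.0644) and without PBS_vehicle replicate 3 (0.61, adjusted p = 0.0676). In interstitial macrophages, where Itgb5 was highest, PBS_vehicle held 326, 328 and 398 CPM and Bleo_vehicle 370.5, 437 and 567, which overlap (0.41 ± 0.23, adjusted p = 0.517). General capillaries held 3.09, 0 and 4.33 CPM of Itgb5 in PBS_vehicle and 76.2, 61.0 and 18.6 in Bleo_vehicle, too few to pass the filter.

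Itgb1 had log2 changes of -0.79 to 0.33 after bleomycin and was called in none of its 11 classes. The lowest value was in general capillary endothelium, with 342, 431 and 676 CPM in PBS_vehicle and 206, 267 and 319.5 in Bleo_vehicle. These groups did not overlap, like 19.4% of all genes tested in the class, and the change of -0.79 ± 0.25 had an adjusted p of 0.0923. It was called without Bleo_vehicle replicate 3 (-0.99, adjusted p = 0.0236) and without PBS_vehicle replicate 1 (-1.04, adjusted p = 0.0317). Bleo_NVP stood at 440, 379.9 and 493 CPM, above all Bleo_vehicle libraries (23.9% of genes did not overlap), and was not called against them (0.67 ± 0.26, adjusted p = 0.155). Itgb3 in type I nuclei was set apart by 1 library. PBS_vehicle held 83.1, 59.0 and 73.6 CPM and Bleo_vehicle 125, 38.4 and 38.5, so that replicate 1 was the highest and replicates 2 and 3 the lowest of all 12 libraries (log2 change -0.19 ± 0.38, adjusted p = 0.853). Without Bleo_vehicle replicate 1 the change was -0.91 and was called (adjusted p = 0.0161).

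Itgb2 was the single chain called in the whole lung, where 5.51% of 14442 genes were called between Bleo_NVP and Bleo_vehicle and 2.44% between Bleo_vehicle and PBS_vehicle. It held 15.4, 7.76 and 6.78 CPM in PBS_vehicle, 37.5, 18.9 and 15.5 in Bleo_vehicle and 5.34, 7.19 and 7.88 in Bleo_NVP, so that Bleo_vehicle lay above both other groups. Its lowest library only just passed the highest of PBS_vehicle (15.49 against 15.38 CPM), and 20.3% of all genes did not overlap between these groups. Between Bleo_NVP and Bleo_vehicle 32.9% of all genes did not overlap. The log2 change was -1.77 ± 0.42 with the inhibitor (adjusted p = 0.0341) and 1.18 ± 0.40 after bleomycin (adjusted p = 0.141). The call was lost without Bleo_NVP replicate 1, 2 or 3 (-1.65, -1.80 and -1.87) and without Bleo_vehicle replicate 1 or 2 (-1.32 and -1.92), with adjusted p from 0.0593 to 0.133. The shares of the macrophage classes, its main source, are given beside it. Interstitial macrophages or monocytes made up 9.09, 5.99 and 5.85% of nuclei there, 1.29 to 2.39% in PBS_vehicle and 1.80 to 3.02% in Bleo_NVP, which do not overlap Bleo_vehicle. Alveolar macrophages made up 17.6, 8.52 and 7.2% in Bleo_vehicle, 4.82 to 8.07% in PBS_vehicle and 5.74 to 7.36% in Bleo_NVP, which overlap. The part of these shares in the whole-lung difference was not tested. Within alveolar macrophages Itgb2 stood at 133, 99.3 and 87.7 CPM in PBS_vehicle, 164, 136 and 114 in Bleo_vehicle and 78.2, 77.3 and 98.9 in Bleo_NVP. Bleo_vehicle and Bleo_NVP did not overlap, like 25.6% of all genes tested there, and the change of -0.67 was not called (adjusted p = 0.13). Itgb7, tested in the whole lung only, and Itgb4, tested in ciliated and venous endothelial nuclei, were called in neither comparison. The whole-lung change of Itgb4 with the inhibitor was -1.20 ± 0.36 (adjusted p = 0.0716), and DESeq2 called it (adjusted p = 0.0318).

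NVP-BHG712 without bleomycin left no called difference. Between PBS_NVP and PBS_vehicle the 40 pairs had log2 changes of -0.58 to 0.67, and edgeR called 0 pairs in the classes and 0 genes in the whole lung, as did every other setting run for the 40 pairs, DESeq2 included. None of the 40 had an unadjusted p under 0.05, and 0% of all genes were called in the classes and in the whole lung. Between Bleo_NVP and PBS_NVP 0 pairs were called as well, with log2 changes of -1.18 to 0.45, 1 unadjusted p under 0.05 and 0% of all genes called. The interaction, the effect of the inhibitor after bleomycin minus its effect after PBS, was called for 0 of the 40 pairs and 0 of the 9 genes in the whole lung by edgeR and for 1 of the 40 by DESeq2, where edgeR called 0.546% of all gene and class pairs and 0.298% of genes in the whole lung. The unadjusted p was under 0.05 for 5 pairs, and the lowest adjusted p was 0.0828, for Itgb6. In other settings the interaction of Itgb6 was called 3 times in type II nuclei (log2 -2.80 to -2.56) and 2 times in ciliated nuclei (-2.91 to -2.59). In the main fit the inhibitor's effect on these chains was not shown to differ between injured and uninjured lungs, with Itgb6 nearest to the threshold.

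The genes that work with these integrins were counted over the same 11 classes, where 3.41% of all pairs were called after bleomycin and 4.28% with the inhibitor. Of their matrix ligands 17 of 51 pairs of a gene and a class rose and 2 fell after bleomycin, with a median log2 change of 1.36 against -0.01 for all genes, and with the inhibitor 2 rose and 15 fell, with a median of -1.48 against 0.00. The calls came from 4 genes, Fn1, Spp1, Npnt and Fbn1. Pairs such as Spp1 in general capillaries and type I nuclei passed the filter on low counts only through Bleo_vehicle. Such pairs are counted because they are high there, so the counts and medians of this list are a description and no test. Fibronectin (Fn1), a main ligand of alpha V integrins, stood at 305, 134 and 66.4 CPM in type II nuclei of Bleo_vehicle and at 9.01 to 21.8 in PBS_vehicle (log2 change 3.5 ± 0.62, adjusted p = 0.00929). Osteopontin (Spp1), a secreted ligand made by macrophages among other cells, rose in general capillaries from 0 to 2.06 CPM in PBS_vehicle to 587, 192 and 54.2 in Bleo_vehicle (6.99 ± 1.07, adjusted p = 0.00351). In 8 classes with named values and in the whole lung Spp1 was highest in Bleo_vehicle replicate 1 and lowest in replicate 3, the order of the mitochondrial shares. Fn1 had the same order in all 6 classes with named values, for example 657, 261 and 44.6 CPM in ciliated nuclei. The Bleo_vehicle values of Itgb6 in type II nuclei and of Itgb2 in the whole lung had this order too. Those of Itgb6 in ciliated nuclei and of Itgb5 in alveolar macrophages did not. The part of RNA quality and of free RNA in these differences was not tested. Nephronectin (Npnt), a basement membrane ligand, fell in type I nuclei after bleomycin, from 803, 709 and 718 CPM in PBS_vehicle to 288, 351 and 369 in Bleo_vehicle (-1.14 ± 0.15, adjusted p = 0.00182), and rose with the inhibitor to 747, 824 and 669 in Bleo_NVP (1.15 ± 0.15, adjusted p = 0.00176). After bleomycin Npnt was also called lower in fibroblasts (log2 change -1.51), but higher in alveolar macrophages (2.14) and general capillaries (1.82).

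Of the TGF-beta ligands and latency genes 4 of 43 pairs rose and 1 fell after bleomycin, and 1 fell with the inhibitor, with medians of 0.05 and -0.20. The rises were Tgfb2 and Ltbp1 in type II nuclei, Ltbp1 in alveolar macrophages and Ltbp2 in fibroblasts, and the fall was Ltbp4 in fibroblasts. Tgfb2, a TGF-beta ligand that needs release from its propeptide, held 24, 85.4 and 33.6 CPM in type II nuclei of Bleo_vehicle and 2.58 to 16.4 in PBS_vehicle (3.10 ± 0.72, adjusted p = 0.0287). Bleo_NVP held 10.2, 57.6 and 52.4 CPM, which overlaps Bleo_vehicle, and this gene was not called with the inhibitor. Ltbp2, which belongs to the latent TGF-beta binding protein family, held 180.1, 60.1 and 64.5 CPM in fibroblasts of Bleo_vehicle, 11.7 to 14.4 in PBS_vehicle and 9.96 to 18.4 in Bleo_NVP (2.90 ± 0.43 and -2.77 ± 0.45, adjusted p = 0.00234 and 0.0043). Receptors gave 3 rises of 49 pairs after bleomycin (Tgfbr2 in ciliated nuclei, Tgfbr3 in club cells and alveolar macrophages) and 3 falls with the inhibitor (Tgfbr2 in club cells and fibroblasts, Eng in ciliated nuclei). Of the TGF-beta target genes 11 of 44 pairs rose and 0 fell after bleomycin (median 1.03), and 0 rose and 10 fell with the inhibitor (median -1.25), but 7 of the 11 were Fn1, which is also in the ligand list, and Col1a1 and Ltbp2 were among the others. Pairs such as Fn1 in ciliated nuclei passed the filter only through Bleo_vehicle, so these counts too are a description and no test.

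Of the alpha chains other than alpha V 7 of 74 pairs rose and 4 fell after bleomycin, and 3 rose and 12 fell with the inhibitor, with medians of 0.33 and -0.52. Itga8, the fibroblast chain that binds Npnt, held 2168, 2677 and 3195 CPM in fibroblasts of PBS_vehicle, 435, 851 and 1424 in Bleo_vehicle and 3256, 2621 and 3433 in Bleo_NVP (-1.56 ± 0.34 and 1.77 ± 0.34, adjusted p = 0.0161 and 0.00743). Itga2, a collagen receptor chain, rose in type II nuclei after bleomycin (log2 change 2.23, adjusted p = 0.0142) and fell with the inhibitor, from 65.2, 81.7 and 32.2 CPM in Bleo_vehicle to 10.2, 12.0 and 2.76 in Bleo_NVP (-2.78 ± 0.55, adjusted p = 0.0138). It passed the filter there only through Bleo_vehicle. Fibroblasts gave calls in the same directions (2.86 and -3.04). In general capillaries, with a mean of 359 CPM, Itga2 was called higher with the inhibitor (0.79, adjusted p = 0.0432). Itga9, which also binds Spp1, fell in type II nuclei after bleomycin, from 1914, 1518 and 1474 CPM to 501, 654 and 1045 (-1.15 ± 0.26, adjusted p = 0.0224). It was also called lower in fibroblasts (-0.63), but higher in alveolar macrophages (2.65), club cells (1.18) and general capillaries (1.74). Itga8 in fibroblasts and Itga9 in type II nuclei were lowest in Bleo_vehicle replicate 1 and nearest to PBS_vehicle in replicate 3. Of the adaptors and activators inside the cell (talins, kindlins, the ILK complex and others) 5 of 116 pairs rose and 0 fell after bleomycin, and 1 rose and 3 fell with the inhibitor, with medians of -0.02 and -0.05, shares near those over all pairs. In none of the 6 lists was a pair called between PBS_NVP and PBS_vehicle or between Bleo_NVP and PBS_NVP.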

How the data were processed

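Nuclei isolated from frozen lungs were sorted by DAPI and sequenced as 3′ libraries (10x, v3.1 chemistry). The authors deposited filtered matrices of UMI counts per gene and nucleus, aligned to mm10 with Cell Ranger, given as version 7.0 in the submitters' processing notes and as a later version in the file headers and the study's methods. The notes also name Seurat 4.4.1. The study removed ambient RNA with DecontX and doublets with DoubletFinder in later steps, which were not run here. Positions are those of GRCm38.

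Nuclei with 200 to 6000 genes and at most 5% mitochondrial UMIs were kept (47319 of 49163), and 2708 doublets were removed with Scrublet at 0.8% per 1000 nuclei. Ambient RNA was not removed. Harmony on 30 components, 20 neighbours and Leiden clustering at resolution 1 (scanpy 1.11.5) gave 37 clusters, named from at least 3 markers, with 72 listed genes left out of the variable genes. A total of 6 clusters (1518 nuclei) stayed unnamed. Counts were summed per class and library (at least 20 nuclei), filtered with filterByExpr, scaled by TMM and fitted over all 4 groups with edgeR 4.0.16 (R 4.3.3) as a quasi-likelihood test with Benjamini-Hochberg adjustment, in 11 classes and in the whole lung. Class sums held 37784 to 12257640 UMIs and libraries 3521537 to 46457084, so genes with few UMIs have wide errors. For genes with little spread edgeR bounds p from below by the Poisson test, and p then does not follow from the SE. DESeq2 1.42.0 and the other settings of the closing section were alternatives.

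The 9 genes, the gene lists and the tests were chosen with earlier results of these data known. Genes of the 6 lists were given with values where they were called, had a mean of at least 10 CPM and did not overlap between groups, up to 3 per direction, class and comparison. Itga2 in type II nuclei after bleomycin, and Itga2, Itga9 and Npnt in further classes, were added after their values were seen. Some genes that met these rules are not reported here. The scripts were tested on simulated data. Replicate numbers paired samples only between PBS_NVP and PBS_vehicle, where the deviations of every same-numbered pair correlated (r = 0.39 to 0.74 in the whole lung).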

Additional observations from a re-analysis of the deposited data

Results flagged for a closer look

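The interaction, the effect of NVP-BHG712 after bleomycin minus that after PBS, was called for 4 pairs of a listed gene and a class or the whole lung, and for none of the 9 integrin genes (edgeR). Integrin alpha 6 (Itga6) in fibroblasts had a log2 interaction of -3.00 ± 0.62 (adjusted p = 0.0425), with 23.3, 18.8 and 9.62 CPM in Bleo_vehicle, 2.66 to 3.92 in Bleo_NVP, 4.77 to 5.35 in PBS_NVP and 2.27 to 4.51 in PBS_vehicle. In alveolar macrophages the value was -3.57 ± 0.82 for integrin alpha 9 (Itga9, adjusted p = 0.0316), with 31.1 to 92.7 CPM in Bleo_vehicle, 9.89 to 26.1 in Bleo_NVP, 11.7 to 44.9 in PBS_NVP and 8.16 to 11 in PBS_vehicle. For fibrillin 1 (Fbn1) it was -3.59 ± 0.76 (adjusted p = 0.0256), with 22.9 to 63.1 CPM in Bleo_vehicle, 9.89 to 13.3 in Bleo_NVP, 14.6 to 27.8 in PBS_NVP and 2.76 to 9.07 in PBS_vehicle. For both genes PBS_NVP lay above PBS_vehicle in every library, so the interaction draws on the uninjured groups as well. Spp1 in the whole lung had -6.25 ± 1.06 (adjusted p = 0.0394). All 4 values include the Bleo_vehicle libraries, whose batch cannot be told apart from the group.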

How the results depend on the processing

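Counts of calls among the pairs of an integrin gene and a class moved with the processing, while no value reversed. From 3 calls between Bleo_vehicle and PBS_vehicle, no filter on low counts gave 10, and leaving out 1 library gave 1 to 8. From 2 between Bleo_NVP and Bleo_vehicle, no filter gave 8, keeping doublets 6, leaving out nuclei rich in type I markers (chosen after seeing the data) 1, and leaving out 1 library 1 to 7. The interaction, with 0, gave 1 with DESeq2, 1 with doublets kept, 2 with no filter and 0 to 3 without 1 library. The whole lung, with 1 call over its 5 comparisons, gave 3 with DESeq2 and 0 to 3 without 1 library. The single library that mattered most was Bleo_vehicle replicate 3, without which the 4 counts were 8, 7, 3 and 3. Without Bleo_vehicle replicate 2 the first 2 counts were 1 and 1, and without Bleo_vehicle replicate 1 they were 5 and 4. With the replicate block the counts were 5, 4, 0 and 5, and 0 between PBS_NVP and PBS_vehicle, the 1 pair of groups whose numbers pair the samples. The causes were not tested.

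Itgb6 in type II nuclei was called in every setting that could be fitted, with log2 changes of 2.11 to 3.02 and -2.90 to -1.99. Outside the losses given above, Itgb5 in alveolar macrophages lost its call with no batch correction (0.60), no filter (0.66) and only the libraries compared (0.69), Itgb6 in ciliated nuclei after bleomycin with only the libraries compared (2.06), and Itgb2 in the whole lung with nuclei of 500 UMIs or more and a mitochondrial share up to 1% (-1.56). Itgb5 in general capillaries, left out by the filter in the main test, was called after bleomycin in 12 other settings (3.71 to 4.98). Itgb4 in type I and in type II nuclei, also not tested in the main fit, was called after bleomycin in 1 other setting each (3.63 and 4.26). The mean level in interstitial macrophages moved from 129 to 79.1 CPM for Itgb2 with no batch correction, and from 401.5 to 286 CPM with no batch correction and 321 CPM with doublets kept for Itgb5. Fits could not be made, and were not run, for arterial endothelium under that last setting and without Bleo_NVP or Bleo_vehicle replicate 1, and type II nuclei and interstitial macrophages with no batch correction.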

Other observations

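Outside Bleo_vehicle the 9 libraries fell into sets that their groups do not give. Deviations from group means over 8510 genes of the whole lung correlated at 0.93 between PBS_vehicle replicate 1 and PBS_NVP replicate 1, at 0.51 to 0.56 among PBS_vehicle replicate 2, PBS_NVP replicate 2 and Bleo_NVP replicate 2, and at 0.33 to 0.53 among PBS_vehicle replicate 3, PBS_NVP replicate 3 and Bleo_NVP replicates 1 and 3. These last 4 libraries held 584 to 672 CPM of Itgb6 in type I nuclei, against 312 to 356 in the other 5, and 356 to 386 CPM of Itgb1 in the whole lung, against 231 to 289. The first set is the 2 libraries with run number 1, while the other sets each mix run numbers.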
